A study of Homo sapiens with 36 samples.

Results

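The 5 genes described here are the NR4A orphan receptors NR4A1, NR4A2 and NR4A3 and the retinoid X receptors RXRA and RXRB, which were chosen by name from the 35492 genes summed from the deposited tables. The study treated the human acute myeloid leukaemia lines MOLM-13 and MONO-MAC-6, both labelled wild type (WT), for 72 h with the vehicle DMSO or with A9. A9 is a PROTAC, a compound that brings a protein to a ubiquitin ligase so that the protein is degraded, and the series names NR4A1 as one of its targets. The other target is IKK1 in the series title and IKK2 in its design text. MOLM-13 received 0.125 µM A9 and MONO-MAC-6 received 0.25 µM, so dose and line cannot be told apart. Each of the 4 groups (MOLM-13 DMSO, MOLM-13 A9, MONO-MAC-6 DMSO and MONO-MAC-6 A9) held 9 libraries, which carry 3 sample numbers with 3 repeat libraries each, and the series states 3 samples per condition and line. No label says that the samples came from separate cultures, so p-values measure the spread between these samples, which may be technical. Each line is a single established cell line grown in RPMI medium with serum, and RNA does not show whether A9 lowered any protein.

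NR4A receptors are transcription factors whose ligand pocket is filled by bulky side chains, and their activity is largely set by how much of them is made. They are known as immediate early genes: their promoters respond within minutes to growth factors, cytokines, calcium and cyclic AMP, in part through CREB bound at cyclic AMP response elements. NR4A1 and NR4A2 can bind DNA alone at an extended hormone response site or as a pair with RXR, whereas NR4A3 is not known to pair with RXR. RXR receptors are the shared partners of the retinoic acid, vitamin D, liver X, thyroid hormone and PPAR receptors. In the myeloid lineage NR4A1 is known for its part in non-classical monocytes, and joint loss of NR4A1 and NR4A3 in mice leads to acute myeloid leukaemia. RXRA with RARA is the pair through which retinoic acid drives myeloid maturation.

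The sequences below show how alike the 5 coding regions are, since reads are assigned to a gene by their sequence. Each is the part of the coding sequence that reads into the first zinc finger of the DNA-binding domain, taken from the GENCODE release 29 transcripts (GRCh38) and given 5′ to 3′. In NR4A1 the capitals mark bases that are the same in all 3 NR4A genes, and in the other genes they mark bases that are the same as in NR4A1. The stretch covers coding bases 960 to 1079 of NR4A1 (chr12:52055126-52056070, plus strand, exons 3 and 4), counted from the A of the start codon. It covers bases 786 to 905 of NR4A2 (ENST00000339562, chr2:156328493-156329401, minus strand, exons 3 and 4) and bases 906 to 1025 of NR4A3 (ENST00000330847, chr9:99828915-99832729, plus strand, exons 2 and 3). In RXRA it covers bases 402 to 521 (ENST00000481739, chr9:134408271-134409030, plus strand, exons 3 and 4) and in RXRB bases 612 to 731 (ENST00000374685, chr6:33197851-33198336, minus strand, exons 3 and 4).
NR4A1: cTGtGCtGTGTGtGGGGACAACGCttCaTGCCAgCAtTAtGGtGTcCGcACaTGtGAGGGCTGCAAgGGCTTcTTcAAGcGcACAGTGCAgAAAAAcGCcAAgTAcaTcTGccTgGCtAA
NR4A2: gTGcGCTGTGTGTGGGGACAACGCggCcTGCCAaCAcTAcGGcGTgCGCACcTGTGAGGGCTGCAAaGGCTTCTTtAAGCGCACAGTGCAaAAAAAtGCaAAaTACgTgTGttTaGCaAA
NR4A3: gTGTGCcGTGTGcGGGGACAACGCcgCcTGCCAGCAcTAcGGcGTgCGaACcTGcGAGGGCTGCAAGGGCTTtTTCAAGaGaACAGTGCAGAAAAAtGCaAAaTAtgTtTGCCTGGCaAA
RXRA: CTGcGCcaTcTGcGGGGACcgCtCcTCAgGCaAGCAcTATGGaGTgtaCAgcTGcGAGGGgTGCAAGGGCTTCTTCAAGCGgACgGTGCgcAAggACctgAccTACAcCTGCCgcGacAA
RXRB: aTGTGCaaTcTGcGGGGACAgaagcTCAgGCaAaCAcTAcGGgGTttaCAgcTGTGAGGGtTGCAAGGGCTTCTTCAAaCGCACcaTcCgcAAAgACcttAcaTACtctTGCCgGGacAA
Over this stretch NR4A2 and NR4A3 each had the base of NR4A1 at 80.8% of positions, RXRA at 70.0% and RXRB at 66.7%. The longest run that any 2 of the 5 coding sequences shared was 22 bases, between RXRA and RXRB, and no pair shared a run of 31 bases over their whole annotated transcripts. Runs of 31 bases shared with genes other than these 5 made up 12.5% of those in NR4A1 and 5.40% of those in RXRB, where the shared runs were all with the neighbouring gene SLC39A7. They made up 0.195% in NR4A2, 0.127% in NR4A3 and 0.679% in RXRA.

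The promoters of 3 of the genes follow because the inducible NR4A genes are read out here beside a constitutively expressed RXR. They are RefSeq windows (GRCh38.p14) that run 5′ to 3′ on the plus strand and end at the base before a RefSeq start. Capitals mark TGACG, the short form of the cyclic AMP response element, searched on both strands (CGTCA is its reverse complement), and the windows without capitals hold no match.
NR4A3, chr9:99821635-99821884: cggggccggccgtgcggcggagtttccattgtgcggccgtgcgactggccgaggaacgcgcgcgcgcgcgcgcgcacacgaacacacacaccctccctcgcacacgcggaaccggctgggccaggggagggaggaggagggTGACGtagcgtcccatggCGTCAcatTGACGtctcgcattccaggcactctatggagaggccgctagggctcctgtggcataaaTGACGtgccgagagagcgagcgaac
NR4A1, chr12:52037465-52037714: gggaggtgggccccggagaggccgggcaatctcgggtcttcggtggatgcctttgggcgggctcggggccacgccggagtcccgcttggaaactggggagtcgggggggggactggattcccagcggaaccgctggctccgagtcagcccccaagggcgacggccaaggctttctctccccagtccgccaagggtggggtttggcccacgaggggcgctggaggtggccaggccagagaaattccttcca
RXRA, chr9:134326205-134326454: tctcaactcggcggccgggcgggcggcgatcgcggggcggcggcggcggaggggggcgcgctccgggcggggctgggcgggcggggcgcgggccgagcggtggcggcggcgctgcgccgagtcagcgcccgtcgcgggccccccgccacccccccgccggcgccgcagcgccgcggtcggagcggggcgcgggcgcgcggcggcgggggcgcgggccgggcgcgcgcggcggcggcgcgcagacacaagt
The NR4A3 window held 4 of them, and 1.01% of all 35116 windows held 3 or more, while 21.2% held at least 1. The 2 NR4A1 windows end at its first annotated start and at the start at position 52037715. None covers the starts from position 52051402 to 52051463, which held 34.4% of NR4A1 TPM in MOLM-13, and no NR4A2 window was used. None of the windows of NR4A1, RXRA and RXRB held TGACG, and none of the windows of these 4 genes held the full element TGACGTCA (1.65% of all windows), AAAGGTCA (the NR4A element, 1.05%) or AGGTCA (12.1%, which overlaps AAAGGTCA). The RXRA window was 89.2% G and C, more than in 99.97% of all windows.

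NR4A1 (ENSG00000123358, chr12:52022832-52059507, GRCh38, plus strand) was low in both lines and did not pass the test in either. In bulk RNA such as this, fewer cells that express a gene and less RNA per cell cannot be told apart. In MOLM-13 the 3 DMSO samples had 4.23, 3.25 and 3.85 TPM (the unit of the deposited tables, a level corrected for transcript length and for the total of the library) and the 3 A9 samples 4.20, 3.71 and 2.80 TPM. The groups overlapped, with A9 minus DMSO at −0.071 on the log2(TPM + 1) scale (SE 0.16, 95% confidence interval −0.45 to 0.31, limma adjusted p = 0.921). In MONO-MAC-6 the DMSO samples had 3.52, 4.85 and 5.25 TPM and the A9 samples 4.96, 6.96 and 5.25 TPM. The ranges again overlapped, and the highest level was that of A9 sample 2 (0.28, SE 0.18, interval −0.16 to 0.73, adjusted p = 0.397). These log2 values understate the change of genes at such low TPM. NR4A1 stood above 19.9% of the 11679 genes tested in MOLM-13 and above 28.0% of the 12963 tested in MONO-MAC-6. The SD of NR4A1 between single repeat libraries of 1 sample was 0.18 on the log2 scale for MOLM-13 and 0.17 for MONO-MAC-6. Between samples, each a mean of 3 repeat libraries, it was 0.19 and 0.24. Averaging narrows the repeat spread, so the SDs are on unlike scales. Even so, the sample means spread more widely than the single libraries did, which was not tested.

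NR4A2 (ENSG00000153234, chr2:156324432-156342348, minus strand), best known from dopamine neurons, was near 1 TPM everywhere. The MOLM-13 levels were 1.14, 1.02 and 0.765 TPM with DMSO and 1.16, 1.16 and 0.869 TPM with A9 (0.063 on the log2 scale, SE 0.13, adjusted p = 0.914). The MONO-MAC-6 levels were 0.682, 0.959 and 0.879 TPM with DMSO and 0.872, 0.984 and 0.871 TPM with A9. Its mean there was under the minimum of 1 TPM in both groups, so it entered no test in that line alone. In both lines the groups overlapped.

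NR4A3 (ENSG00000119508, chr9:99821855-99866891, plus strand), whose promoter held the 4 TGACG sites, was nearly silent. Its sample means were 0.00588 to 0.0246 TPM in MOLM-13, where 4 of the 18 libraries were listed at 0, and 0.0417 to 0.0946 TPM in MONO-MAC-6. The MONO-MAC-6 levels were 0.0417, 0.0670 and 0.0487 TPM with DMSO and 0.0946, 0.0853 and 0.0469 TPM with A9, which overlap. Its mean was below that of every gene tested in either line, and no test was made.

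**Figure D1:**
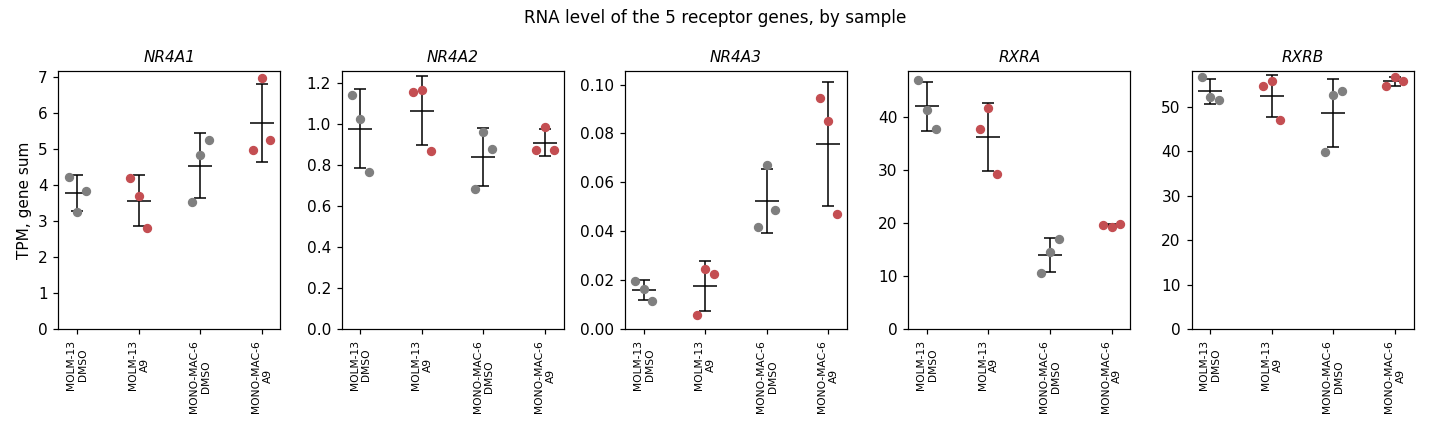
TPM of each gene (y axis, from 0, a separate scale per gene) in the 3 samples of each group (points, each the mean of 3 repeat libraries), with the group mean and SD (bar and whiskers). The lines do not overlap for RXRA, whose MOLM-13 samples lie between 29.1 and 46.8 TPM and MONO-MAC-6 samples between 10.6 and 19.7 TPM, or for NR4A3, where MONO-MAC-6 is the higher line.

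RXRA (ENSG00000186350, chr9:134317098-134440585, plus strand), which pairs with RARA in myeloid maturation, was the member with the largest fitted difference in each line, and it did not pass the test in either. In MONO-MAC-6 the DMSO samples had 10.6, 14.4 and 16.9 TPM and the A9 samples 19.6, 19.3 and 19.7 TPM. Every A9 sample was above every DMSO sample, as was so for 27.4% of all genes tested in this line. The difference was 0.48 on the log2 scale (SE 0.17, interval 0.062 to 0.90) (limma adjusted p = 0.198). In MOLM-13 the levels were 46.8, 41.3 and 37.7 TPM with DMSO and 37.6, 41.6 and 29.1 TPM with A9. The groups overlapped there and the difference was −0.22 (SE 0.15, adjusted p = 0.831). The 2 lines' differences were 0.70 apart (SE 0.24, interval 0.17 to 1.22), and the test of this difference between lines gave an adjusted p of 0.170. Repeat libraries of RXRA agreed closely, with an SD of 0.026 for MOLM-13 and 0.032 for MONO-MAC-6, against 0.21 and 0.22 between samples.

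The RXRA result in MONO-MAC-6 turned on DMSO sample 1. Without that sample the difference was 0.31 and passed the test (adjusted p = 0.0207), as did 25.2% of the 13020 genes then tested. DMSO sample 1 had the lowest level of its group for each of the 5 members. With libraries rescaled by their median ratio the difference between the lines was 0.51 and passed the test (adjusted p = 0.0327), and with the trend over transcript length removed it was 0.60 (adjusted p = 0.0492). In MONO-MAC-6 alone the RXRA differences under these settings were 0.34 (adjusted p = 0.108) and 0.41 (adjusted p = 0.0798).

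RXRB (ENSG00000204231), an RXR gene expressed in most tissues, was at 51.5 to 56.7 TPM in the MOLM-13 DMSO samples and at 54.6, 55.7 and 46.9 TPM with A9. The groups overlapped (−0.031 on the log2 scale, SE 0.089, adjusted p = 0.938). In MONO-MAC-6 the levels were 39.7, 52.5 and 53.5 TPM with DMSO and 54.5, 56.6 and 55.9 TPM with A9. All A9 samples were above the DMSO samples, as for 27.4% of all genes tested in this line. The difference did not pass the test (0.21, SE 0.13, interval −0.11 to 0.52, adjusted p = 0.385). Without DMSO sample 1 it was 0.070. The difference between the lines was 0.24 (SE 0.16, adjusted p = 0.403). The third RXR gene, RXRG, was listed at 0 in every MOLM-13 sample and at a mean of 0.0152 TPM with DMSO and 0 with A9 in MONO-MAC-6.

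**Figure D2:**
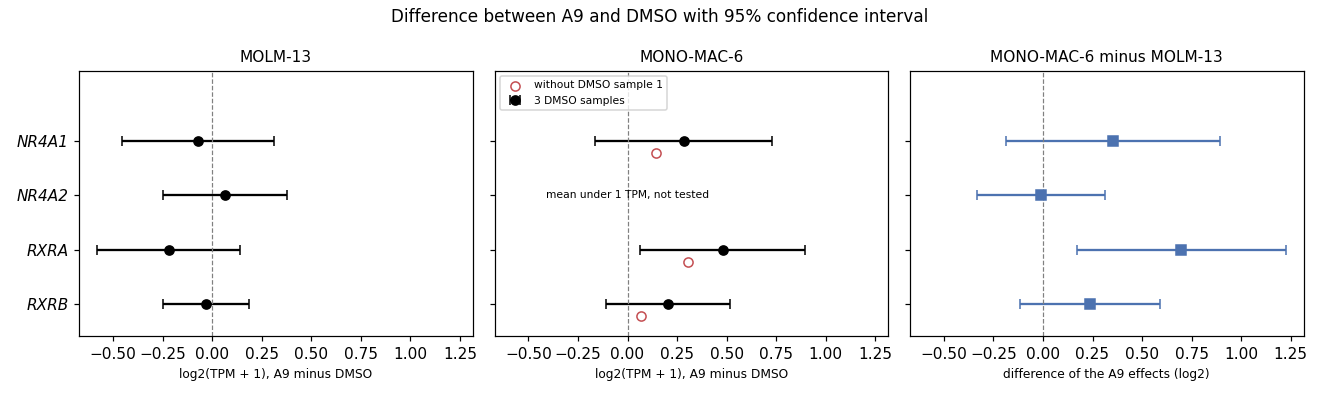
A9 minus DMSO on the log2(TPM + 1) scale (x axis) for the 4 genes that could be tested, with 95% confidence intervals, in MOLM-13, in MONO-MAC-6 and as the difference between the lines. Open circles are the MONO-MAC-6 values without DMSO sample 1. The RXRA intervals lie above 0 in MONO-MAC-6 (0.062 to 0.90) and for the difference between the lines (0.17 to 1.22), and the others include 0.

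Counted over the members, 0 of the 4 tested in MOLM-13 passed the test, against 0.154% of all genes, and 0 of the 3 tested in MONO-MAC-6 passed, against 3.44%. At an unadjusted p under 0.05 the counts by limma were 0 in MOLM-13 (8.04% of all genes) and 1, RXRA, in MONO-MAC-6 (20.7%). For the difference between the lines 0 members passed, against 3.05% of the 13501 genes. The median difference of the members tested was −0.051 in MOLM-13, beside −0.046 over all genes, and in MONO-MAC-6 0.28, beside 0.16 over all genes. The MOLM-13 median of the members turned to 0.051 without A9 sample 3 and 0.0039 without DMSO sample 1, where that of all genes turned to 0.031 and 0.010. The MONO-MAC-6 median fell to 0.14 without DMSO sample 1, where that of all genes was 0.028.

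The order of levels across the 4 groups differed by gene. RXRA ranked MOLM-13 DMSO (mean 41.9 ± 4.59 TPM, SD, n = 3), MOLM-13 A9 (36.1 ± 6.36), MONO-MAC-6 A9 (19.5 ± 0.226) and MONO-MAC-6 DMSO (13.98 ± 3.17). Only the first and second of these groups overlapped. NR4A1 ranked MONO-MAC-6 A9 (5.72 ± 1.08 TPM), MONO-MAC-6 DMSO (4.54 ± 0.904), MOLM-13 DMSO (3.78 ± 0.494) and MOLM-13 A9 (3.57 ± 0.712), and each group overlapped the next. For NR4A2 and RXRB every group also overlapped its neighbour in the order. For NR4A3 the samples of the lines did not overlap, all MONO-MAC-6 samples being above all MOLM-13 samples. The tables of the lines were deposited separately, so levels across lines are a description.

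Among the 48 human nuclear receptor genes, RXRB had the highest mean level in MOLM-13 (52.9 TPM), followed by the oestrogen-related receptor ESRRA (52.4), RXRA (39.0), the liver X receptor NR1H2 (37.2) and the orphan receptor NR2C1 (29.3). In MONO-MAC-6 the order was NR1H2 (58.4), RXRB (52.1), ESRRA (50.6), PPARG (38.1) and the liver X receptor NR1H3 (22.3), and RXRA ranked 10 with 16.8 TPM. NR4A1 ranked 18 and 17 in the 2 lines. PPARG, a partner of RXR in lipid handling, was at 0.00316 TPM with DMSO and 0 with A9 in MOLM-13. Of the family 0 of 21 tested passed in MOLM-13 (2 at an unadjusted p under 0.05 by limma, against 8.04% of all genes). The family's median there was −0.092 and turned to 0.011 without DMSO sample 1 and 0.045 without A9 sample 3. In MONO-MAC-6 1 of 24 rose (2.56% of all genes did), with a median of 0.28. ESRRA, a regulator of mitochondrial genes, went from 40.6, 40.3 and 45.1 TPM to 58.7, 59.0 and 59.8 TPM (0.49, SE 0.084, adjusted p = 0.0339). The ESRRA call was lost on leaving out any of 5 samples, all but DMSO sample 1, and the adjusted p ranged from 0.00111 to 0.220. With median-ratio scaling it was 0.153. In the fit without DMSO sample 1 the family's median was 0.096, and 5 receptors rose and 2 fell, beside 25.2% of all genes called.

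**Figure D3:**
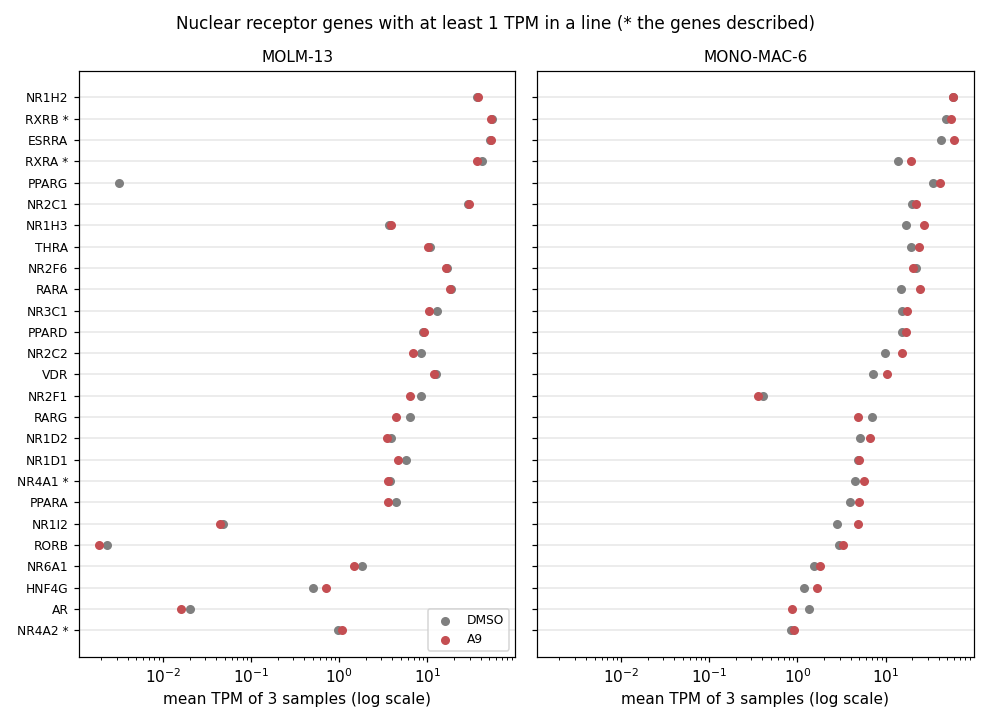
Mean TPM of 3 samples (x axis, log scale) for the 26 nuclear receptor genes that reached a mean of 1 TPM in either line, with DMSO in grey and A9 in red; means at or under 0.001 TPM are not drawn. RXRB and RXRA are among the highest in MOLM-13 (52.9 and 39.0 TPM over all samples), and NR4A2 is near 1 TPM in both lines.

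At the level of transcripts the members differed in how their RNA was spread. RXRA came almost wholly from 1 coding transcript, RXRA-202 (ENST00000481739, 1846 bases), with 99.4% of its MOLM-13 TPM and 98.2% of its MONO-MAC-6 TPM. RXRA-202 alone gave 10.5, 14.2 and 16.5 TPM with DMSO and 19.1, 19.0 and 19.5 TPM with A9 in MONO-MAC-6 (0.48, SE 0.18, adjusted p = 0.282 over all transcripts). NR4A2-204 (ENST00000409572) held 59.7% of NR4A2 for MOLM-13 and 87.9% for MONO-MAC-6. NR4A1 was spread over 22 annotated transcripts, with NR4A1-204 (ENST00000394825) at 28.7% in MOLM-13 and NR4A1-218 (ENST00000553200) at 18.6% in MONO-MAC-6. Coding transcripts made up 80.6% and 79.4% of NR4A1, and transcripts with a retained intron 18.2% and 18.9%. Of the members' transcripts 0 passed the test in either line, against 0.00982% of 40728 transcripts in MOLM-13 and 0.406% of 48474 in MONO-MAC-6; at an unadjusted p under 0.05 the limma counts were 0 (5.34% of all transcripts) and 1, RXRA-202 (16.3%).

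NR4A1-204, which starts in the region that holds 34.4% of NR4A1 TPM in MOLM-13, had 0.147, 0.712 and 0.761 TPM with DMSO and 1.14, 0.827 and 1.39 TPM with A9 in MONO-MAC-6. Every A9 sample was above the DMSO samples (0.48, SE 0.23, adjusted p = 0.348), as for 23.4% of the transcripts tested there. The opposite order held for NR4A1-202 (ENST00000360284), which begins at the first annotated start (position 52022832) and was singled out after its values were seen. It had 1.37, 0.896 and 0.644 TPM with DMSO and 0.302, 0.591 and 0.221 TPM with A9 in MONO-MAC-6. Among the transcripts tested there, 7.63% had every A9 sample below every DMSO sample. NR4A1-202 was not in that set. In MOLM-13 NR4A1-202 overlapped between groups, at 0.456, 0.244 and 0.967 TPM with DMSO and 0.306, 0.631 and 0.219 TPM with A9. Its mean was under 1 TPM in both groups of each line, so it was not tested. Transcripts beginning at the first annotated start made up 12.3% to 39.0% of NR4A1 in the MONO-MAC-6 DMSO samples and 4.21% to 8.48% in the A9 samples. The share of 39.0% was that of DMSO sample 1.

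RXRB differed from the other members in where its TPM lay. The gene is in the major histocompatibility region of chromosome 6 (chr6:33193588-33200688, minus strand), of which GRCh38 carries further copies outside the primary assembly. The deposited tables list 37 RXRB transcripts, 5 of the primary assembly and 32 of other copies, and the other copies held 94.3% to 96.8% of RXRB TPM in each sample. Transcripts of the primary assembly alone summed to 1.26 to 3.17 TPM. They were almost wholly RXRB-205 (ENST00000483821) and RXRB-203 (ENST00000481441), which retain an intron, while coding transcripts of the primary assembly held 0.0330% of RXRB TPM for MOLM-13 and 0.0156% for MONO-MAC-6. RXRB-205 had the same mean values in every sample as 5 transcripts of other copies and RXRB-203 as 4 (within 1e-05 TPM), so these are not separate measurements. The largest shares were ENST00000415909 in MOLM-13 (26.6%) and ENST00000436753 in MONO-MAC-6 (20.3%). With the primary assembly alone, the RXRB difference was 0.017 in MOLM-13 (adjusted p = 0.986), which turns its sign. On the same sums it was 0.38 in MONO-MAC-6 (adjusted p = 0.346) and 0.36 between the lines (adjusted p = 0.439). Other copies held more TPM than the primary assembly for 265 of 11460 genes for MOLM-13 and 286 of 12609 for MONO-MAC-6. Within the major histocompatibility region that holds RXRB, this was so for 75 of 110 genes for MOLM-13 and 78 of 117 for MONO-MAC-6. RXRB thus shared this feature with most genes of its region. The other members had 0 transcripts outside the primary assembly.

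**Figure D4:**
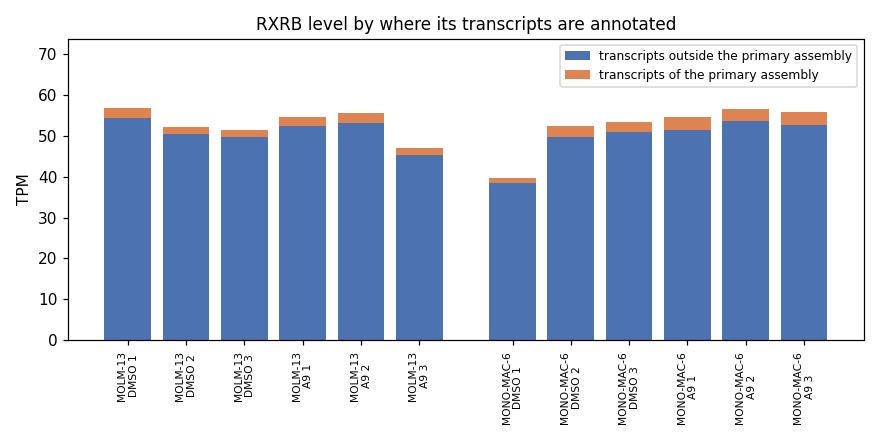
TPM of RXRB (y axis, from 0) in each of the 12 samples, split into transcripts of the primary assembly (orange) and of other copies (blue). The orange part is between 1.26 and 3.17 TPM in every sample, and MONO-MAC-6 DMSO sample 1 has the lowest bar (39.7 TPM).

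The genes most like each member across the 6 samples of a line, by the lower of the 2 within-line correlations among 8171 genes, were as follows. CIRBP, SHISA5 and EXOC1 were most like NR4A1 (Pearson r of 0.905 and 0.901 for CIRBP in MOLM-13 and MONO-MAC-6). NEK6, CHRFAM7A and WSB2 were most like RXRA (0.999 and 0.993 for NEK6), and ZNF251 and SPAG9 were among the genes most like RXRB (0.990 and 0.990 for ZNF251). None of these 8 genes passed the test in either line. Between members, RXRA and RXRB had an r of 0.906 and 0.938, and NR4A1 and NR4A2 0.470 and 0.868. The samples shared library preparation, and these values are a description.

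A single direction of variation held most of the variance in each line. In MOLM-13 68.1% of the variance fell on the first principal component, with DMSO sample 1 (−31.0) and A9 sample 3 (37.7) at its ends. These samples also had the highest and the lowest level of NR4A1, RXRA and RXRB. They were not the extremes for NR4A2 (1.14 and 0.869 TPM) or NR4A3 (0.0198 and 0.0225 TPM). In MONO-MAC-6 the first component held 70.2%, with DMSO sample 1 at 63.1 and the other 5 samples between −23.4 and 2.79. The part of this component in the members' values was not tested. The median difference over all genes in MONO-MAC-6 was 0.16, and 0.032 after median-ratio scaling, so differences there are best read against it. As for the label of the cells, 10 of 12 myeloid markers were tested in each line, with LYZ, CEBPA and SPI1 the highest. Of 18 markers of other cell types, 13 were under 1 TPM in each line and 6 for MOLM-13 and 5 for MONO-MAC-6 were listed at 0, among them CD3E, MS4A1, HBB and PPBP. Their summed level was 78.5 to 123 TPM with DMSO and 98.1 to 137 TPM with A9 in MOLM-13, and 172 to 245 and 294 to 317 TPM in MONO-MAC-6, most of it NKG7 and PECAM1 (and NCAM1 in MOLM-13). None of the 5 tested in each line passed. At an unadjusted p under 0.05 by limma there were 1 and 5, against 8.04% and 20.7% of all genes. Their medians were −0.18 and −0.36, beside −0.046 and 0.16 over all genes. The MOLM-13 median of these markers turned to 0.29 without DMSO sample 1 and 0.17 without A9 sample 3, and in MONO-MAC-6 1 rose and 2 fell without DMSO sample 1 (25.2% of all genes were called).

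Neither of the IKK genes passed the test. IKBKB, which encodes IKK2, had 17.3, 29.9 and 34.6 TPM with DMSO and 39.9, 37.5 and 38.0 TPM with A9 in MONO-MAC-6 (0.53, SE 0.24, adjusted p = 0.276), and its adjusted p was 0.868 in MOLM-13. Without DMSO sample 1 IKBKB passed in MONO-MAC-6 (0.25, adjusted p = 0.0347), as did 25.2% of all genes then tested. CHUK, which encodes IKK1, had an adjusted p of 0.457 in MONO-MAC-6 and 0.931 in MOLM-13.

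Upstream of the NR4A genes, the factors that act on their induction, activators and repressors, did not pass the test. Of 14 such genes, among them CREB1, the CRTC coactivators and the MEF2 factors with their HDAC repressors, 0 of 14 passed in either line (0 and 1 at an unadjusted p under 0.05 by limma, against 8.04% and 20.7% of all genes). The list's median, which mixes activators and repressors, was −0.17 for MOLM-13 and 0.22 for MONO-MAC-6. The signs changed with the samples and settings: the MONO-MAC-6 median was −0.0038 without DMSO sample 1, where 1 gene rose, 0.083 with median-ratio scaling and −0.039 with the length trend removed, and the MOLM-13 median was 0.0088 without A9 sample 3. MEF2D, the highest of them, had means of 70.7 and 59.8 TPM for MOLM-13 and 71.0 and 80.4 TPM for MONO-MAC-6, with DMSO and A9. Of the 10 proteins known to bind NR4A1, 0 passed in either line (0 and 1 unadjusted), with medians of −0.10 and 0.29. Their MONO-MAC-6 median was 0.051 without DMSO sample 1, where 2 rose and 1 fell (25.2% of all genes were called), and their MOLM-13 median turned to 0.029 without DMSO sample 1 and 0.057 without A9 sample 3. CTNNB1, a coactivator of Wnt signalling, had means of 145 TPM with DMSO and 180 TPM with A9 in MONO-MAC-6 (0.32, adjusted p = 0.200; 0.20 and adjusted p = 0.0139 without DMSO sample 1).

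Other immediate early genes were called in MONO-MAC-6 where NR4A1 was not. Of 12 tested, 3 rose (2.56% of all genes did) and 0 fell, with a median of 0.30. FOS, a subunit of AP-1, went from 22.4, 34.1 and 28.98 TPM to 50.5, 54.6 and 52.6 TPM (0.88, SE 0.16, adjusted p = 0.0382). EGR1, a zinc finger factor induced by serum, went from 25.9, 38.1 and 30.9 TPM to 60.9, 60.5 and 61.9 TPM (0.94, adjusted p = 0.0245). DUSP1, a phosphatase of MAP kinases, went from a mean of 0.793 to 2.19 TPM (0.83, adjusted p = 0.0208). DUSP1 was tested only because its A9 mean reached the minimum of 1 TPM. No test compared these genes with NR4A1. In MOLM-13 0 of 8 passed (0 unadjusted, against 8.04% of all genes), with a median of −0.098. Leaving out samples one at a time, FOS and DUSP1 passed in 1 of 6 fits and EGR1 in 2, in each case including the fit without DMSO sample 1, where 8 of 12 genes of the list rose (14.7% of all genes did).

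Downstream, the number of called genes among those reported to be regulated by NR4A receptors turned on DMSO sample 1 of MONO-MAC-6. With all samples 1 of 14 tested rose there (2.56% of all genes did), and without that sample 7 rose and 4 fell (25.2% of all genes were called). PDK4, a kinase that restrains pyruvate oxidation, went from 0.101, 0.132 and 0.224 TPM to 1.08, 1.70 and 1.40 TPM (1.05, SE 0.14, adjusted p = 0.0128). PDK4 reached the minimum of 1 TPM only in the A9 group, so it was tested only because it was high there. With a minimum of 5 TPM, 0 of 12 genes of the list rose. PDK4 passed in 3 of the 6 fits that left out 1 sample. The list's median was 0.18, and 0.091 without DMSO sample 1. In MOLM-13 0 of 14 passed (0 unadjusted, against 8.04% of all genes), with a median of −0.083 that turned to 0.037 without A9 sample 3. MYC, which NR4A receptors are known to repress in blood cells, had means of 279 and 218 TPM in MOLM-13 (−0.40, adjusted p = 0.766) and 196 and 219 TPM in MONO-MAC-6 (0.21, adjusted p = 0.601), where the difference turned to −0.085 without DMSO sample 1.

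The receptors that pair with RXR did not pass the test. Of the 14 partners 0 of 8 tested passed for MOLM-13 and 0 of 10 for MONO-MAC-6 (1 and 5 at an unadjusted p under 0.05 by limma, against 8.04% and 20.7% of all genes), with medians of −0.079 and 0.32. The MOLM-13 median turned to 0.034 without DMSO sample 1, 0.094 without A9 sample 3 and 0.016 with the length trend removed. In MONO-MAC-6 6 of the 10 had every A9 sample above every DMSO sample, as did 27.4% of all genes. NR1H3, a liver X receptor of macrophages, had 18.7, 16.5 and 16.5 TPM with DMSO and 23.1, 30.9 and 28.0 TPM with A9 there (0.63, SE 0.14, adjusted p = 0.0682). Without DMSO sample 1, 3 partners rose and 1 fell among 10 tested (14.7% of all genes rose and 25.2% were called), the median was 0.18, and NR1H3 passed (0.69, adjusted p = 0.00471). Of the 16 coactivators and corepressors 0 of 15 tested passed in either line (0 and 3 unadjusted, against 8.04% and 20.7% of all genes), with medians of −0.19 and 0.42. The MONO-MAC-6 median of these coregulators was 0.084 without DMSO sample 1, where 3 rose and 1 fell, and 0.15 with the length trend removed. Their MOLM-13 median turned to 0.034 both without DMSO sample 1 and without A9 sample 3. HDAC3, the deacetylase of the NCOR complex, was the highest, at 69.2 and 72.6 TPM for MOLM-13 and 80.2 and 76.6 TPM for MONO-MAC-6.

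Target genes of the RXR pairs were called in MONO-MAC-6, in both directions. Of the vitamin D receptor targets 3 of 4 tested rose (2.56% of all genes did), with a median of 1.33. THBD, the thrombin receptor thrombomodulin, went from 6.51, 10.6 and 11.2 TPM to 31.7, 36.6 and 33.8 TPM (1.77, SE 0.20, adjusted p = 0.0104). CD14, the monocyte coreceptor for lipopolysaccharide, went from 3.71, 2.66 and 3.05 TPM to 12.4, 13.1 and 13.5 TPM (1.77, SE 0.14, adjusted p = 0.00257). FBP1, an enzyme of gluconeogenesis, went from a mean of 8.40 to 16.5 TPM (0.90, adjusted p = 0.0109). CYP24A1, the enzyme that inactivates vitamin D and a classic target of its receptor, was at 0.0249 TPM with DMSO and 0.0189 TPM with A9. CD14 passed in all 6 fits that left out 1 sample, THBD in 3 and FBP1 in 2. In MOLM-13 only THBD could be tested (11.3 and 13.6 TPM, adjusted p = 0.798).

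Of the retinoic acid receptor targets 1 of 5 tested rose in MONO-MAC-6 (2.56% of all genes did), and 2 rose and 1 fell without DMSO sample 1. DHRS3, a retinal reductase, went from 3.44, 3.82 and 4.73 TPM to 11.5, 12.8 and 13.2 TPM (1.44, SE 0.14, adjusted p = 0.00591). The list's median was 0.29. CYP26A1, which breaks down retinoic acid, was at 0.307 and 0.189 TPM. In MOLM-13 0 of 3 passed (2 unadjusted, against 8.04% of all genes), with a median of 0.49, beside −0.046 over all genes. Of the liver X receptor targets 1 of 6 tested fell in MONO-MAC-6 (0.879% of all genes did): SREBF1, the master factor of fatty acid synthesis, went from 45.7, 51.5 and 55.1 TPM to 25.8, 23.7 and 24.2 TPM (−1.01, SE 0.10, adjusted p = 0.00642), and the list's median was −0.13. In the fit without DMSO sample 1, where 25.2% of all genes were called, 2 of the 6 rose and 3 fell, with a median of −0.35, and with median-ratio scaling the median was −0.27. In MOLM-13 0 of 6 passed (1 unadjusted, against 8.04% of all genes). The median of these 6 was −0.082 and turned to 0.029 without DMSO sample 1 and 0.070 without A9 sample 3. DHRS3 and SREBF1 each passed in 4 of the 6 fits that left out 1 sample, failing without A9 sample 2 and without A9 sample 3.

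CD14 is also a myeloid marker, and other markers of that list were called. In MONO-MAC-6 4 of 10 tested rose (2.56% of all genes did), with a median of 0.30. Leaving out DMSO sample 1, 5 rose and 1 fell (25.2% of all genes were called), with a median of 0.17. LYZ, which encodes lysozyme, went from a mean of 3413 to 7681 TPM (1.17, adjusted p = 0.00268), CD68 from 52.5 to 173 TPM (1.72, adjusted p = 0.00524) and SPI1, the myeloid factor PU.1, from 262 to 340 TPM (0.38, adjusted p = 0.0437). In MOLM-13 1 of 10 rose (0.111% of all genes did), LYZ, from 138, 141 and 122 TPM to 320, 343 and 317 TPM (1.29, SE 0.075, adjusted p = 0.00376), with a list median of 0.15; without A9 sample 1 its adjusted p was 0.0521. In MONO-MAC-6 LYZ passed in all 6 fits that left out 1 sample, CD68 in 5 and SPI1 in 1, and with median-ratio scaling the adjusted p of SPI1 was 0.385. The vitamin D targets and the myeloid markers share CD14, so their counts are not independent. Other lists share genes too. All RXR partners are in the receptor family, and NR1H3 is also a liver X receptor target. JUN and JUNB are both immediate early and NR4A regulated genes, CEBPA is NR4A regulated and a myeloid marker, and BCL2 is NR4A regulated and an NR4A1 partner.

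**Figure D5:**
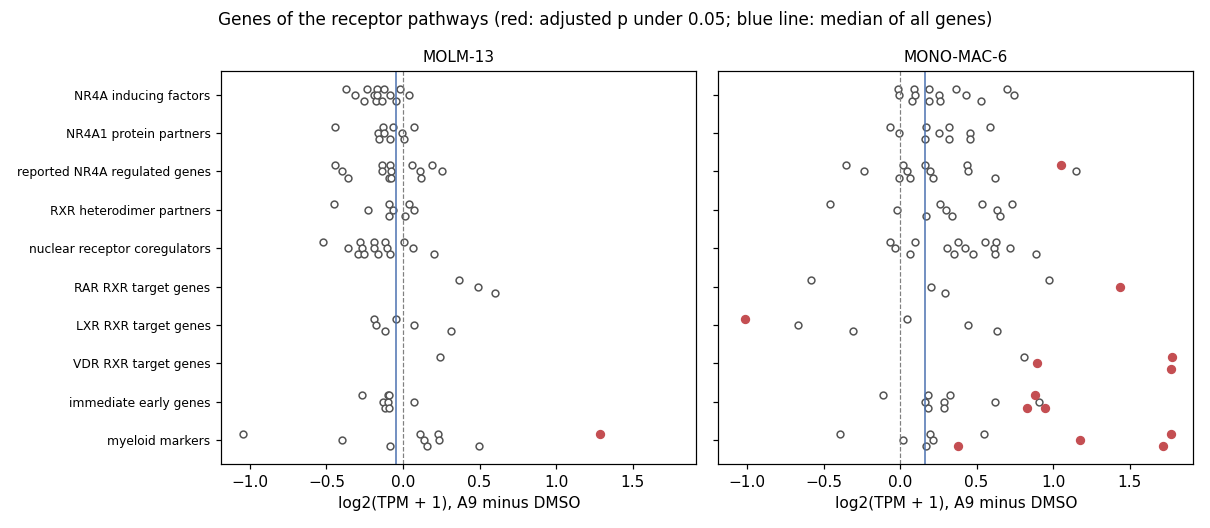
A9 minus DMSO on the log2(TPM + 1) scale (x axis) for each tested gene of 10 lists (rows), red where the adjusted p was under 0.05; the blue line is the median of all genes (−0.046 for MOLM-13 and 0.16 for MONO-MAC-6). In MONO-MAC-6 the red points above 1.5 are THBD, CD14 (drawn in both of its lists) and CD68, and SREBF1 is the red point below 0.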

How the data were processed

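RNA was measured in 36 libraries of 2 cell lines. Per the labels' protocols, RNA of RIN 8 or more was selected for poly(A), prepared with a NEBNext Ultra II kit and sequenced as 150-base paired-end reads. The deposited values are TPM per Ensembl transcript, 1 table per line, and each library sums to the same total. The submitters' processing notes name kallisto, limma and GRCh38, with versions and annotation not given in the sources used here. TPM holds no read counts, so depth per value is unknown.

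Of 207175 transcripts, 162561 were matched by identifier to GENCODE release 29 and 14848 more, outside the primary assembly, by HGNC symbol. Their TPM were summed to 35492 genes, and repeat libraries were averaged to 12 samples. limma 3.58.1 (R 4.3.3, trend and robust) was fitted to log2(TPM + 1) of all genes whose mean reached 1 TPM in either group, with Benjamini-Hochberg adjustment and a threshold of 0.05. The difference between lines came from a fit of all 12 samples. With 3 samples against 3 an exact permutation test of a single gene cannot go below 0.10, so none was run. The scripts were tested on simulated data.

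The members and the 13 gene lists (the members, nuclear receptors, RXR partners, coregulators, NR4A inducing factors, NR4A1 protein partners, NR4A regulated genes, RAR, LXR and VDR targets, immediate early genes, myeloid markers and markers of other cell types) were chosen with earlier results of these data known, so no list is independent evidence. Named genes were the members and their transcripts of at least 0.5 TPM, up to 5 called genes per list and line by size of change (otherwise up to 3 of the highest level), the 5 highest nuclear receptors, the 3 genes most like each member of at least 1 TPM (among genes of at least 5 TPM), IKBKB and CHUK. CREB1, MYC, CYP24A1, CYP26A1, PPARG in MOLM-13, RXRG and the markers of other cell types were named beside them after their values were seen. A few named genes are not reported here.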

Additional observations from a re-analysis of the deposited data

How the results depend on the processing

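Direction and side of the threshold were the same in 92 of 107 refits of the members' differences that kept all samples and in 78 of 90 that left 1 out. RXRB in MOLM-13 turned to 0.013 with median-ratio scaling and to 0.017 without transcripts outside the primary assembly (an alternative chosen after seeing the data). Libraries were also averaged by their second number, which makes each value a mean over the 3 samples of a group. The spread left is that between repeat libraries, so these fits do not measure the spread between samples. In them RXRA in MOLM-13 (−0.21) and NR4A1 (0.28), RXRA (0.46) and RXRB (0.19) in MONO-MAC-6 passed the test. So did the differences between the lines of NR4A1 (0.35), RXRA (0.67) and RXRB (0.22). With each library its own sample, which counts repeats as replicates, RXRA (0.48) and RXRB (0.21) in MONO-MAC-6 and RXRA (0.70) and RXRB (0.24) between the lines passed. Between the lines RXRA also passed with median-ratio scaling (0.51) and with the length trend removed (0.60).

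Leaving out 1 sample, the log2 differences in MOLM-13 ranged from −0.17 to 0.056 for NR4A1, −0.016 to 0.13 for NR4A2, −0.33 to −0.077 for RXRA and −0.076 to 0.045 for RXRB, with changes of sign without A9 sample 3 (NR4A1, RXRB), DMSO sample 3 (NR4A2) and DMSO sample 1 (RXRB). In MONO-MAC-6 they ranged from 0.14 to 0.38 for NR4A1, 0.31 to 0.62 for RXRA and 0.070 to 0.28 for RXRB. Between the lines they ranged from −0.078 to 0.071 for NR4A2, which changed sign in 7 of 12 fits. Among RXRB transcripts, ENST00000481441 and the 4 copies with its values ranged from −0.16 to 0.091 in MOLM-13, and ENST00000443603 from −0.094 to 0.0087 in MONO-MAC-6. CHUK in MOLM-13 ranged from −0.12 to 0.055 and was 0.034 with the length trend removed, and MYC in MONO-MAC-6 ranged from −0.085 to 0.41.

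The counts of called genes (18 in MOLM-13, 446 in MONO-MAC-6, 412 between the lines) and transcripts (4 and 197) moved most. Without a filter on low values there were 5 and 286 genes and 0 and 10 transcripts. Median-ratio scaling gave 55 genes and 0 transcripts in MOLM-13. Averaging by the second number, which leaves out the spread between samples, gave 5533, 8795 and 8590 genes and 8878 and 21896 transcripts. Single libraries gave 1789, 5703 and 5699 genes and 1993 and 14603 transcripts. Removing the length trend gave 191, 1156 and 774 genes, with 52.1% of MONO-MAC-6 calls higher instead of 74.4%. limma without trend and robust gave 0 transcripts in MOLM-13. Leaving out 1 sample gave 3 to 9, 58 to 3283 and 209 to 552 genes and 0 to 2 and 0 to 1590 transcripts, the highest MONO-MAC-6 counts without DMSO sample 1. With the replicate number as a block there were 109, 105 and 210 genes and 2 and 0 transcripts, and no member changed its call. Evidence that same-numbered samples are pairs was mixed in MOLM-13, where their deviations had an r of 0.363, −0.073 and 0.679, and weak in MONO-MAC-6 (−0.029, 0.089 and −0.096). Not every sample correlated best with its own number, and no label says that a number is shared, so the numbers were not treated as pairs. The block cost the calls of PDK4, SPI1, SREBF1, DUSP1, EGR1, FBP1, FOS and ESRRA in MONO-MAC-6. Without the filter on low values, SPI1 (adjusted p = 0.0775), EGR1 (0.0581), FOS (0.0867) and ESRRA (0.0675) were no longer called. The causes of these changes were not tested. Without read counts, noise from depth cannot be told apart from other spread at the low levels of NR4A1, NR4A2 and NR4A3.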
